A study of Homo sapiens with 6 samples.

Results

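The genes described here are the zinc finger genes of the clusters on the short arm of human chromosome 19, a set of 41 genes given by symbol, of which 30 lie in 19p13.11 to 19p12 and 11 in 19p13.2. Of these, 37 had a probe set that carried their symbol alone, 27 in the 19p13.11 to 19p12 cluster and 10 in the 19p13.2 cluster, among 18132 genes on the array. ZNF66, ZNF98, ZNF177 and ZNF492 had no such probe set and were not analysed here. RNA was measured on 6 Affymetrix PrimeView arrays from U87 cells, a human glioma line. The cells had been stably transfected with a pcDNA vector and selected with G418, and carried IL-33 ΔNLS, a form without its nuclear domain (labelled IL33 DNLS, clones 3 and 4), full-length IL-33 (clones numbered 3, 5 and 9) or the empty vector (control, 1 array). Each clone is a single stable line, and the control has no replicate, so the comparisons with it take its spread to be that of the clones. The labels do not say whether a clone was cultured more than once, so the p-values describe the spread among these arrays alone, which may be technical.

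Most of the proteins these genes encode pair an N-terminal KRAB domain with a run of C2H2 zinc fingers. The fingers read DNA, often within retrotransposons and other repeats, and the KRAB domain recruits TRIM28 (also known as KAP1), which brings in the histone methyltransferase SETDB1 and heterochromatin proteins to silence the bound site. The genes arose by repeated duplication and stand side by side, many with closely similar sequence, and the clusters themselves are covered by heterochromatin in many cell types.

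The promoters of ZNF91 in 19p12 and ZNF562 in 19p13.2 are shown because, of their cluster, these genes had the largest raw difference in signal between ΔNLS clones and the control. With values under background raised to it, ZNF266 (8.98-fold) exceeds ZNF562 (at least 5.75-fold) in 19p13.2. The sequences are those of RefSeq (GRCh38.p14), from 250 bases before to 50 bases after the annotated start, read along the gene, with each CG dinucleotide in capitals. ZNF91 held 11 CG dinucleotides and ZNF562 held 18, against a median of 23 over 14346 genes of the array with a promoter sequence.
ZNF91, chr19:23395422-23395721, minus strand: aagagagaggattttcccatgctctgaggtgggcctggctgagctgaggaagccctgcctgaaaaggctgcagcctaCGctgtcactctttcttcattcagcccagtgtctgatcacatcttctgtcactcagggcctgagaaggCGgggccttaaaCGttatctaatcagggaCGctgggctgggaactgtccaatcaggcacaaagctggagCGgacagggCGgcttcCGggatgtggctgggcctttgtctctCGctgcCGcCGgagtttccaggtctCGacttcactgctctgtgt
ZNF562, chr19:9675051-9675350, minus strand: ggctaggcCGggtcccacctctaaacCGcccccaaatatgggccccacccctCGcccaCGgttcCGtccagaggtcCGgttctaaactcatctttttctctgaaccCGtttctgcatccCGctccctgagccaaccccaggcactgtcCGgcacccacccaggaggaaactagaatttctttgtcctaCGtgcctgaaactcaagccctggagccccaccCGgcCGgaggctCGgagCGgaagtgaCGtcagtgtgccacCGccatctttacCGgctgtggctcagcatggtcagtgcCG

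Promoter sequence was at hand for 32 of the 37 genes, 23 of them in the 19p13.11 to 19p12 cluster. The motif CCAAT, on either strand, stood in 23 of these 23 promoters, in 3 of 9 promoters of the 19p13.2 cluster and in 36.4% of all promoters of the same length. The 10-letter word shared by most promoters of the 19p12 cluster, TCCAATCAGG (or CCTGATTGGA on the other strand), contains that motif. It was present in 21 of 23 promoters of that cluster, in 0 of 9 of the 19p13.2 cluster and in 0.481% of all promoters, and its copies lay between 24 and 88 bases before the start. A second copy was present in 6 of these promoters (ZNF93, ZNF737, ZNF626, ZNF43, ZNF208 and ZNF675). The word was chosen as the most shared one, so its count is a description. The copy farthest from the start is shown in capitals with its flanks of equal length for the 6 genes of the cluster that were above background in every clone and below it in the control (ZNF93, ZNF626, ZNF85, ZNF430, ZNF708 and ZNF91), for 2 that were above it only in ΔNLS clones (ZNF208 and ZNF254), and for ZNF101, which passed in no comparison.
ZNF93, chr19:19900846-19900885, plus strand: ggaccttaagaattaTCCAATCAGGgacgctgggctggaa
ZNF626, chr19:20661634-20661673, minus strand: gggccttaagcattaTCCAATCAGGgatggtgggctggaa
ZNF708, chr19:21329418-21329457, minus strand: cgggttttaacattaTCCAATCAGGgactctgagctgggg
ZNF208, chr19:22011001-22011040, minus strand: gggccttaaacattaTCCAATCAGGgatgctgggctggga
ZNF85, chr19:20923183-20923222, plus strand: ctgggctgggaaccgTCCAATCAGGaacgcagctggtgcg
ZNF430, chr19:21020584-21020623, plus strand: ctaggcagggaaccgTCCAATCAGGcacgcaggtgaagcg
ZNF91, chr19:23395506-23395545, minus strand: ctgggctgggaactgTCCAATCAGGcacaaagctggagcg
ZNF254, chr19:24087119-24087158, plus strand: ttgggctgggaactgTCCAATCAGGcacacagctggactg
ZNF101, chr19:19668753-19668792, plus strand: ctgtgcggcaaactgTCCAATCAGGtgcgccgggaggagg
The word was thus held alike by genes that changed and by ZNF101. Of the 21 genes with it, 18 rose in ΔNLS clones, and so did both of the genes without it, ZNF493 and ZNF257. TATAAA was found in 3 of 32 promoters (9.22% of all genes' promoters) and GGGCGG in 22 of 32 (59.7%), each on either strand. The promoters of the 19p13.11 to 19p12 cluster held a median of 10 CG dinucleotides and those of the 19p13.2 cluster a median of 18.

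Signals are the deposited normalized values on the log2 scale, and a value above 4.8 is called above background here, a level near the 95th percentile of 333 olfactory receptor genes (4.81), which are silent in most cells. Array medians over all probe sets were 5.43 in both ΔNLS clones and between 5.61 and 5.62 in the other 4 arrays, and the share of genes above background was 61.8% to 62.2% in ΔNLS clones, 65.0% to 65.3% in IL-33 clones and 64.5% in the control. Effects of the ΔNLS construct and of a separate array set cannot be told apart. IL33 itself was at 6.50 and 6.62 in ΔNLS clones 3 and 4, at 8.38, 6.40 and 9.50 in IL-33 clones 3, 5 and 9, against 3.46 in the control, so every clone lay above the control, as labelled. Its spread among IL-33 clones was wide, and limma gave adjusted p = 0.0774 for ΔNLS clones and 0.0575 for IL-33 clones. Of 10 glioma and astrocytic markers, VIM, CD44, MET, NES and GFAP were above background in all 6 arrays, SOX2 in 4 arrays and OLIG2 in 1, while S100B, AQP4 and FABP7 were above it in none. Of 11 markers of other cells, PTPRC, CD14, CD3E, MS4A1, CDH5, EPCAM and MBP were below it throughout, CD68, KRT5 and RBFOX3 above it in all 6 arrays and PECAM1 in 4 arrays. In bulk RNA, fewer cells that express a gene and less RNA per cell cannot be told apart.

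The number of zinc finger genes above background was highest in ΔNLS cells and lowest in the control. It was 22 and 20 of 37 in ΔNLS clones 3 and 4, 12, 15 and 14 in IL-33 clones 3, 5 and 9, against 6 in the control. The 19p13.11 to 19p12 cluster accounted for these differences, with 17 and 15 of 27 genes above background in ΔNLS clones, 7, 10 and 9 in IL-33 clones, and 1 in the control, ZNF101. In the 19p13.2 cluster 5 of 10 genes were above background in every array. They were ZNF121, ZNF266, ZNF317 and ZNF561 throughout, with ZNF562 in the clones and ZNF559 in the control. The median level of the 19p13.11 to 19p12 cluster was 5.30 and 5.05 in ΔNLS clones, 3.16, 4.15 and 3.91 in IL-33 clones and 2.68 in the control, so that this cluster as a group was just above background in ΔNLS cells and under it elsewhere.

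**Figure D1:**
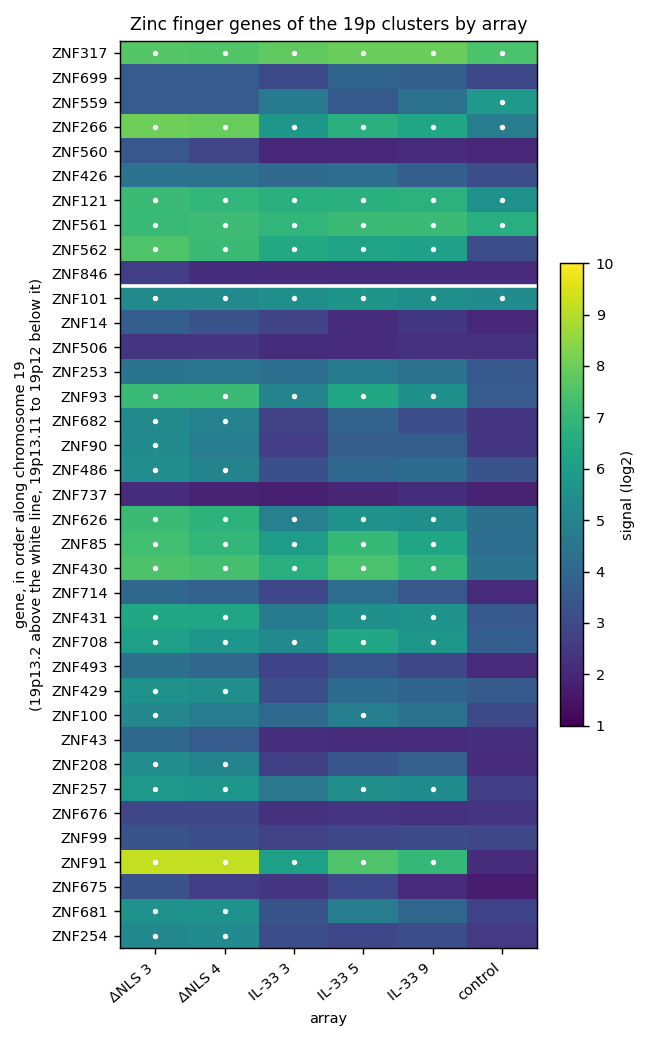
Signal (log2, colour) of the 37 genes (rows, in order along chromosome 19) in each array (columns, numbered by clone); a white dot marks a value above 4.8. Dots fill most rows of the lower cluster in the ΔNLS columns, fewer in the IL-33 columns and 1 row in the control.

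To find which of the genes differed between constructs, all 18132 genes were tested with limma in 1 fit over the 6 arrays, and genes with an adjusted p under 0.05 are called changed. In ΔNLS clones 28 of the 37 genes rose and 1 fell against the control, while 14.8% of all genes rose and 23.5% fell. By cluster, 22 of 27 rose in 19p13.11 to 19p12, and 6 of 10 rose and 1 fell in 19p13.2. In IL-33 clones 9 rose (3.65% of all genes rose) and 0 fell (4.00% of all genes fell), with 20 higher and 1 lower at an unadjusted p under 0.05, which 4760 of the 18132 genes had. All 9 had also risen in ΔNLS clones: ZNF85, ZNF91, ZNF253, ZNF257, ZNF430, ZNF431, ZNF708, ZNF121 and ZNF562. Both comparisons share the 1 control array. Set directly against ΔNLS clones, IL-33 clones were lower in 19 of the 37 genes and higher in 1 (16.1% and 31.4% of all genes).

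The median difference from the control over the 37 genes was 1.95 in ΔNLS clones, beside -0.09 over all genes. It was 0.87 in IL-33 clones, beside 0.04 over all genes. Many of these signals lay below background, and with such values set to it the medians were 0.26 in ΔNLS clones and 0.00 in IL-33 clones, beside 0.00 over all genes in each. For the 19p13.11 to 19p12 cluster alone the medians of the raw differences were 2.09 in ΔNLS clones and 0.97 in IL-33 clones. For the 19p13.2 cluster they were 0.87 and 0.52 for the same constructs. Values below background were not raised for these cluster medians. With quantile normalization of all arrays the median over all genes in ΔNLS clones moved to 0.05, and the median of the 37 genes relative to it was 2.12 in place of 2.04. That scaling left 30 of the genes higher and 1 lower in ΔNLS clones, while over all genes 3620 rose and 2981 fell in place of 2680 and 4267. The calls depended on the few arrays. Without ΔNLS clone 3 or clone 4 fewer genes were called in ΔNLS clones, among the 37 and among all genes. The median differences over the 37 genes were then 1.77 and 2.05. In IL-33 clones none of the 9 then passed, nor did any other gene on the array, and the median stayed at 0.87. Without IL-33 clone 3 the calls in IL-33 clones numbered 17, and without clone 9 they numbered 5. Over all genes 691 rose and 730 fell without IL-33 clone 3, and 149 rose and 192 fell without IL-33 clone 9.

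**Figure D2:**
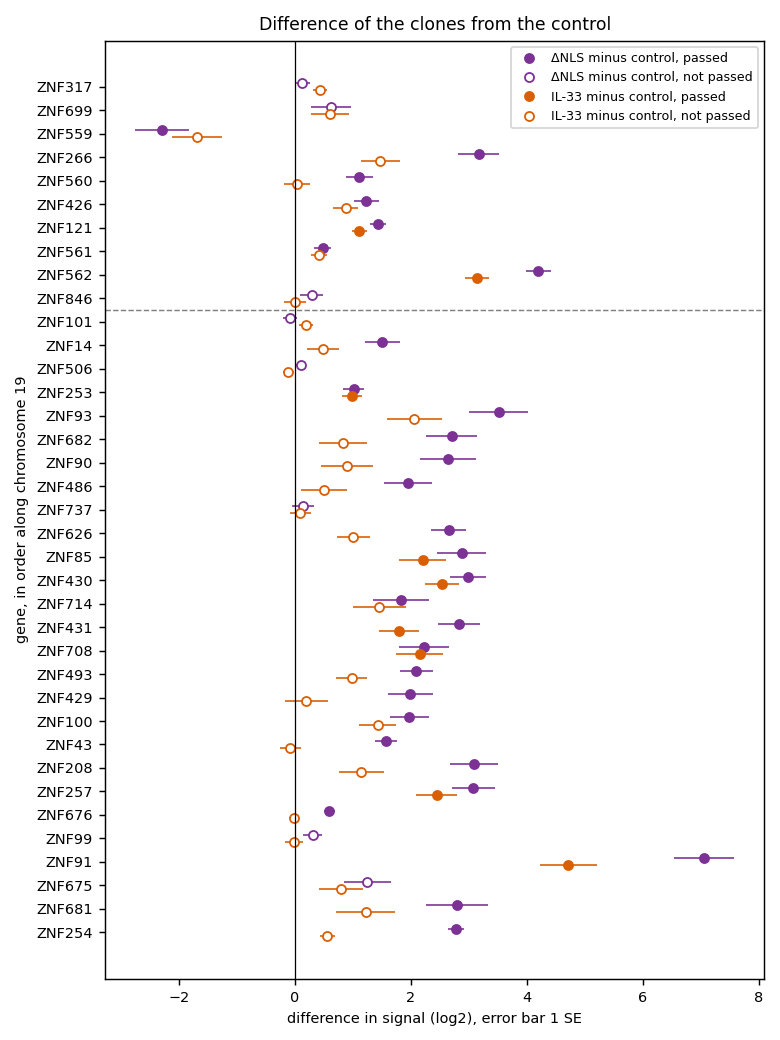
Difference in signal (log2, x axis) of ΔNLS clones (purple, upper point) and IL-33 clones (orange, lower point) from the control for the 37 genes in order along chromosome 19; bars are 1 SE of the limma fit and filled points passed the test. ZNF91, at 7.05 in ΔNLS clones and 4.71 in IL-33 clones, stands farthest to the right and ZNF559 farthest to the left.

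Among the genes, 7 were below background in the control and above it in each of the 5 clones: ZNF91, ZNF93, ZNF85, ZNF430, ZNF626 and ZNF708 in the 19p12 cluster, and ZNF562 in 19p13.2. Over all genes this pattern was found in 0.783%. It holds on the probe sets used. On a second probe set, IL-33 clone 3 was below background in ZNF93 (3.99), ZNF85 (4.44) and ZNF626 (4.66). IL-33 clone 9 was below it in ZNF93 (4.52) too. ZNF430 and ZNF708 had 1 probe set each. ZNF91, a repressor of SVA retrotransposons in human cells, was at 9.23 and 9.18 in ΔNLS clones 3 and 4, at 6.10, 7.51 and 6.99 in IL-33 clones 3, 5 and 9, against 2.15 in the control. ΔNLS clones, IL-33 clones and the control did not overlap, and ZNF91 had the highest signal of the 37 genes in ΔNLS clones and was below background in the control. It rose by 7.05 ± 0.53 in ΔNLS clones (SE of the fit, n = 2 against 1, limma adjusted p = 0.00137) and by 4.71 ± 0.50 in IL-33 clones (n = 3 against 1, adjusted p = 0.0104). Since the control was not above background, the difference is at least 21.2-fold in ΔNLS clones and at least 4.19-fold in IL-33 clones. Those values come from a probe set whose suffix (_x_at) marks probes that may also match related genes. A second probe set for ZNF91 without that suffix was at 4.34 and 4.31 in ΔNLS clones, at 2.89, 4.08 and 3.23 in IL-33 clones, and at 1.85 in the control. It kept the same order of constructs, below background throughout.

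ZNF562 was at 7.53 and 7.12 in ΔNLS clones, at 6.47, 6.18 and 6.16 in IL-33 clones and at 3.13 in the control. Its groups did not overlap either, and it was at least 5.75-fold higher in ΔNLS clones (difference 4.20 ± 0.22, adjusted p = 0.000846) and at least 2.77-fold higher in IL-33 clones (3.14 ± 0.21, adjusted p = 0.00341). The other 3 probe sets of ZNF562 were higher in both constructs as well, by 0.55 to 2.51 in ΔNLS clones and by 0.53 to 1.37 in IL-33 clones, and stayed below background. The probe set used ends in _s_at, a suffix for probes that may match other transcripts. The only probe set of ZNF562 without _s_at or _x_at was at 4.49 and 3.87 in ΔNLS clones. The fold bounds thus hold on the probe set used alone.

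ZNF93, a repressor of LINE-1 elements in human cells, was at 7.07 and 7.13 in ΔNLS clones, at 5.04, 6.39 and 5.50 in IL-33 clones and at 3.59 in the control. ZNF626 was at 7.15 and 6.83 in ΔNLS clones, at 4.94, 5.61 and 5.47 in IL-33 clones and at 4.34 in the control. Both rose in ΔNLS clones, by 3.51 ± 0.50 for ZNF93 (adjusted p = 0.00542) and by 2.65 ± 0.30 for ZNF626 (adjusted p = 0.00315), and neither passed the test in IL-33 clones (2.05, adjusted p = 0.0576, and 1.001, adjusted p = 0.089), although every IL-33 clone lay above the control.

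ZNF430 was at 7.50 and 7.33 in ΔNLS clones, at 6.63, 7.41 and 6.88 in IL-33 clones and at 4.44 in the control. ZNF85 was at 7.27 and 6.97 in ΔNLS clones, at 5.96, 7.04 and 6.33 in IL-33 clones and at 4.24 in the control. ZNF708 was at 6.07 and 5.71 in ΔNLS clones, at 5.30, 6.41 and 5.76 in IL-33 clones and at 3.67 in the control. In these 3 genes the constructs overlapped each other, with IL-33 clone 5 within or above the range of the ΔNLS clones, and all clones stood clear of the control. They rose in both constructs, ZNF430 by 2.98 and 2.54, ZNF85 by 2.88 and 2.20, and ZNF708 by 2.22 and 2.15 (ΔNLS and IL-33 clones against the control), with adjusted p between 0.00271 and 0.0375. As bounds, ZNF430 was at least 6.12-fold and 4.52-fold higher in those constructs, ZNF85 at least 4.99-fold and 3.12-fold, and ZNF708 at least 2.13-fold and 2.03-fold. The only probe set of ZNF430 ends in _x_at.

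**Figure D3:**
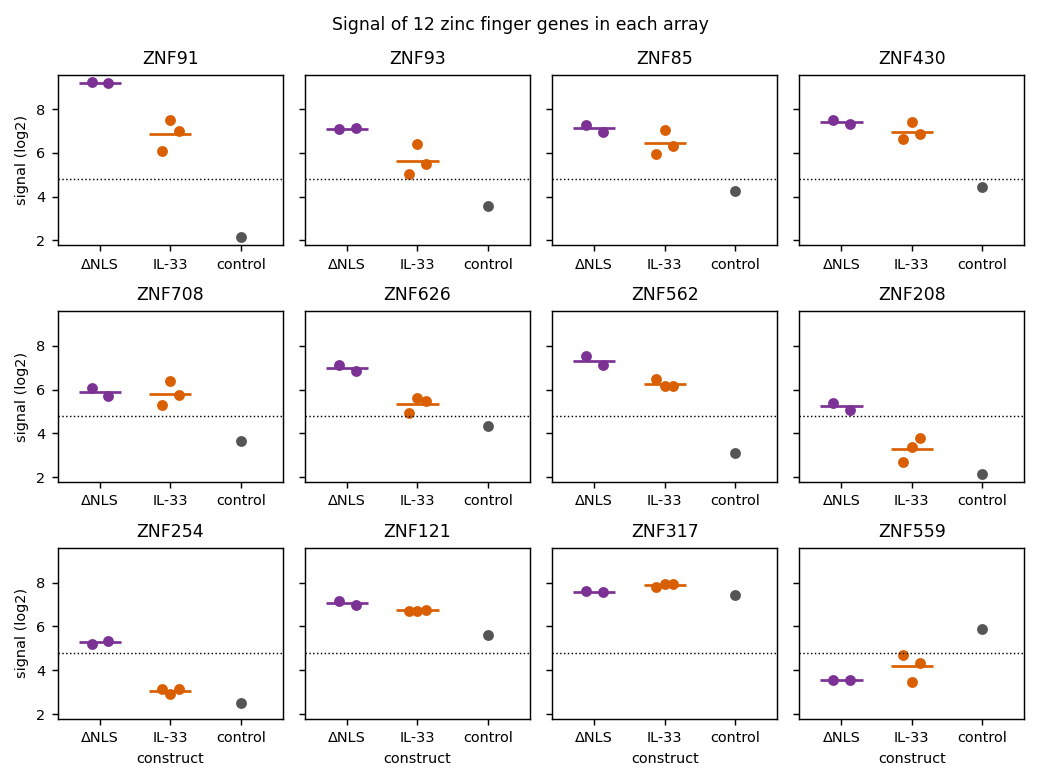
Signal (log2, y axis) of 12 zinc finger genes in each array, with ΔNLS clones in purple, IL-33 clones in orange and the control in grey; horizontal bars are means and the dotted line is the background level of 4.8. In the first 7 panels every clone lies above the line and the control below it.

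ZNF257 and ZNF431 came close to that pattern, with IL-33 clone 3 alone below background among the clones. ZNF257 was at 5.79 and 5.72 in ΔNLS clones, at 4.55, 5.46 and 5.37 in IL-33 clones and at 2.68 in the control. ZNF431 was at 6.39 and 6.28 in ΔNLS clones, at 4.75, 5.52 and 5.63 in IL-33 clones and at 3.51 in the control. Both rose in both constructs, ZNF257 by 3.07 in ΔNLS clones and 2.44 in IL-33 clones (adjusted p = 0.00371 and 0.0203) and ZNF431 by 2.83 and 1.79 (adjusted p = 0.00416 and 0.0374). All 4 probe sets of ZNF257 were higher in both constructs, with differences of 1.64 to 4.04 in ΔNLS clones and 1.93 to 3.13 in IL-33 clones, and all were below background in the control.

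A further 6 genes, all in 19p13.11 to 19p12, were above background in both ΔNLS clones and below it in every IL-33 clone and in the control: ZNF208, ZNF254, ZNF429, ZNF486, ZNF681 and ZNF682 (0.833% of all genes). ZNF254 was at 5.22 and 5.34 in ΔNLS clones, at 3.13, 2.92 and 3.12 in IL-33 clones and at 2.51 in the control. It rose by 2.77 ± 0.13 in ΔNLS clones (adjusted p = 0.000782), and its difference in IL-33 clones was 0.55 ± 0.13 (adjusted p = 0.0565). ZNF254 was also the gene with the smallest p of the 37 between the constructs, with a difference of IL-33 from ΔNLS clones of -2.22 ± 0.10, or a bound of -0.48 from the background level (adjusted p = 0.000457).

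ZNF208 was at 5.41 and 5.05 in ΔNLS clones, at 2.71, 3.39 and 3.77 in IL-33 clones and at 2.15 in the control. ZNF681 was at 5.59 and 5.57 in ΔNLS clones, at 3.33, 4.78 and 3.92 in IL-33 clones and at 2.79 in the control. ZNF682 was at 5.30 and 4.96 in ΔNLS clones, at 2.75, 3.88 and 3.14 in IL-33 clones and at 2.43 in the control. In all 3 both ΔNLS clones lay above every IL-33 clone and the control. The IL-33 clones and the control were all below background, so no order among them is read. ZNF429 was at 5.60 and 5.47 in ΔNLS clones, at 3.16, 4.15 and 3.91 in IL-33 clones and at 3.55 in the control. ZNF486 was at 5.42 and 5.06 in ΔNLS clones, at 3.19, 3.99 and 4.19 in IL-33 clones and at 3.29 in the control. For ZNF429 and ZNF486 the control fell within the range of the IL-33 clones. These 5 genes rose in ΔNLS clones by 1.95 (ZNF486) to 3.08 (ZNF208), with adjusted p up to 0.0162. In IL-33 clones the differences of the 6 genes were 0.20 (ZNF429) to 1.22 (ZNF681), and the smallest adjusted p was that of ZNF254. On the probe sets used, the 6 genes were only just above background in ΔNLS clones, with bounds of 1.25-fold (ZNF682) to 1.72-fold (ZNF681) over the control. The bound depended on the probe set. The second probe set of ZNF682 was below background in every array, at 3.60 and 3.38 in ΔNLS clones, so no bound holds there. Those of ZNF486, ZNF429, ZNF208 and ZNF254 gave bounds of 1.44-fold (ZNF486) to 1.88-fold (ZNF429). The second probe set of ZNF681 was at 6.61 and 6.32 in ΔNLS clones, at 2.58, 3.85 and 3.61 in IL-33 clones and at 2.32 in the control, which is at least 3.17-fold higher in ΔNLS clones.

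ZNF90 and ZNF100 were above background in part of the clones. ZNF90 was at 5.32 and 4.77 in ΔNLS clones, at 2.63, 3.66 and 3.66 in IL-33 clones and at 2.42 in the control. ZNF100 was at 5.16 and 4.77 in ΔNLS clones, at 4.07, 4.87 and 4.35 in IL-33 clones and at 3.00 in the control. Both rose in ΔNLS clones, by 2.63 (limma adjusted p = 0.0103) and 1.97 (limma adjusted p = 0.00878), and the raw signal of every clone was above the control. ZNF90 was above background only in ΔNLS clone 3, and ZNF100 only in ΔNLS clone 3 and IL-33 clone 5. The order of the other signals is not read.

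In the 19p13.2 cluster, 4 genes were above background in all 6 arrays. ZNF266 was at 8.01 and 7.92 in ΔNLS clones, at 5.78, 6.71 and 6.33 in IL-33 clones and at 4.8003 in the control, where it was only just above the level. It rose by 3.17 ± 0.36 in ΔNLS clones (8.98-fold, adjusted p = 0.00307), and the difference in IL-33 clones was 1.47 (adjusted p = 0.0564). ZNF121, whose protein binds MYC, was at 7.14 and 6.96 in ΔNLS clones, at 6.72, 6.71 and 6.77 in IL-33 clones and at 5.62 in the control. It rose in both constructs, by 1.43 ± 0.13 in ΔNLS clones (2.69-fold, adjusted p = 0.0021) and by 1.11 ± 0.12 in IL-33 clones (2.16-fold, adjusted p = 0.0117), and showed little spread among the clones.

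ZNF561, the neighbour of ZNF562, was at 7.06 and 7.17 in ΔNLS clones, at 6.92, 7.12 and 7.12 in IL-33 clones and at 6.64 in the control. Its rise of 0.48 in ΔNLS clones (adjusted p = 0.0474) was that of 1 probe set of 6, and the mean of all 6 gave a difference of -0.01, so its direction depended on the probe set. ZNF317 was at 7.62 and 7.55 in ΔNLS clones, at 7.79, 7.93 and 7.96 in IL-33 clones and at 7.46 in the control. It passed in neither comparison with the control (0.13 in ΔNLS clones and 0.44 in IL-33 clones), and was higher in IL-33 than in ΔNLS clones by 0.31 ± 0.10 (adjusted p = 0.0437), a call that quantile normalization did not keep (difference 0.24). The other 4 probe sets of ZNF317 were lower in ΔNLS clones than in the control, with differences of -0.91 to -0.18, and in IL-33 clones their differences were 0.02 to 0.30, so its direction in ΔNLS clones depended on the probe set as well.

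ZNF559 alone fell. It was at 3.57 and 3.57 in ΔNLS clones, at 4.70, 3.48 and 4.35 in IL-33 clones and at 5.87 in the control, so that all clones were below background and the control above it, a pattern seen in 0.651% of all genes. The difference was -2.29 ± 0.46 in ΔNLS clones (adjusted p = 0.0137) and -1.69 ± 0.43 in IL-33 clones (adjusted p = 0.0722). As a bound, ZNF559 was at least 2.09-fold lower in ΔNLS clones. Its other 2 probe sets ran the same way in both constructs. ZNF101, the one gene of the 19p13.11 to 19p12 cluster above background in the control, was at 5.26 and 5.27 in ΔNLS clones, at 5.49, 5.65 and 5.49 in IL-33 clones and at 5.35 in the control, and passed in no comparison.

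The remaining 14 genes were below background in every array, with signals of 1.72 to 4.71. Of these, 8 still rose in ΔNLS clones: ZNF14, ZNF43, ZNF253, ZNF493, ZNF676 and ZNF714 in the larger cluster, and ZNF426 and ZNF560 in 19p13.2, by 0.59 (ZNF676) to 2.09 (ZNF493). ZNF253 rose in IL-33 clones as well, by 0.99 (adjusted p = 0.0316). No fold is given for them, as both sides were below background. ZNF99, ZNF506, ZNF675, ZNF737, ZNF699 and ZNF846 passed in no comparison, with differences of 0.10 (ZNF506) to 1.25 (ZNF675) in ΔNLS clones. With values under 4.8 set to 4.8, 9 of the 37 genes rose and 1 fell in ΔNLS clones and 1 rose and 1 fell in IL-33 clones. Over all genes 1376 rose and 1844 fell in ΔNLS clones, and 276 rose and 416 fell in IL-33 clones.

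Between the constructs, the differences ran mostly one way. IL-33 clones lay lower than ΔNLS clones with a median difference of -0.63 over the 37 genes, beside 0.13 over all genes, and of -0.07 beside 0.00 with values under background set to it. Among genes above background in all 5 clones, the largest differences were in ZNF91 (-2.34 ± 0.39, adjusted p = 0.0059), ZNF266 (-1.70 ± 0.27, adjusted p = 0.00475), ZNF626 (-1.65 ± 0.22, adjusted p = 0.00317) and ZNF93 (-1.46 ± 0.38, adjusted p = 0.0236). Genes below background in every IL-33 clone have only a bound, such as ZNF254 (-0.48), ZNF208 (-0.43) and ZNF682 (-0.33). ZNF85, ZNF257, ZNF430 and ZNF708, which rose in both constructs, differed between IL-33 and ΔNLS clones by -0.68 to -0.07 and did not pass. Without ΔNLS clone 3 or clone 4 the calls between the constructs numbered 4 and 8 in place of 20. All 5 clones were above the control in 26 of the 37 genes (22.2% of all genes). In 16 of them both ΔNLS clones were above every IL-33 clone and these above the control (9.24% of all genes). Both counts include orders among signals below background. With only the 23 genes above background in some array, they were 19 (26.4% of such genes over the array) and 13 (11.3%). Even so, the step from the control to IL-33 clones lay wholly below background in ZNF90, ZNF208, ZNF254, ZNF681 and ZNF682. IL-33 clones 3, 5 and 9 were not alike. Clone 3 was the lowest of them in 26 of the 37 genes (36.6% of all genes) and clone 5 the highest in 22 (38.7% of all genes). Clone 5 exceeded clone 3 by a median of 0.61, beside 0.00 over all genes. These counts and the median include signals below background. Of the 23 genes above it in some array, the counts were 19 (35.9% of such genes over the array) and 15 (42.0%). IL33 transcript, on the probe set used, was highest in clone 9 and lowest in clone 5. On another of its 3 probe sets it was at 7.15, 5.21 and 6.64 in IL-33 clones 3, 5 and 9, so clone 3 was highest there, and clone 5 was lowest on all 3. Per clone, the median raw difference of the 19p13.11 to 19p12 cluster from the control, values below background included, was 2.26 and 1.93 in ΔNLS clones 3 and 4. It was 0.63, 1.26 and 0.93 in IL-33 clones 3, 5 and 9. Clone 3 exceeded clone 4 among ΔNLS clones in 29 of the 37 genes (48.8% of all genes), by a median of 0.18. Of the 23 genes above background in some array, it did so in 18 (53.2% of such genes over the array).

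As the genes are close copies, probe sets may read more than 1 of them. Of the 37 probe sets used, 17 end in _x_at and 2 in _s_at, suffixes for probes that may match other transcripts. Without such probe sets 28 genes could be tested, of which 20 rose and 1 fell in ΔNLS clones and 5 rose in IL-33 clones. Of all 16703 genes tested in that way, 2375 rose and 4111 fell in ΔNLS clones, and 576 rose and 692 fell in IL-33 clones. The 28 genes that rose in ΔNLS clones included 18 with several probe sets, and 30 of their 33 other probe sets differed in the same direction, all of them in 17 of the 18 genes. For the 9 genes that rose in IL-33 clones, 10 of 10 other probe sets did so. Some of these other probe sets were below background in every array, such as all those of ZNF91 and ZNF562, and several also end in _x_at. Their agreement is thus no independent check on cross-matching. How far cross-matching adds to any one gene's signal was not tested.

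The genes that stand between the members along the chromosome were then compared. Of 4 other zinc finger genes there, 3 rose in ΔNLS clones and 1 in IL-33 clones. The 3 were ZNF812P and ZNF726, on probe sets that end in _x_at, and ZNF738, on one that ends in _s_at. Such probes may match other transcripts, and whether they read RNA of the members themselves was not tested. ZNF812P was below background in every array. ZNF726, next to ZNF254 in the cluster, was at 7.02 and 6.71 in ΔNLS clones, at 5.15, 6.41 and 5.85 in IL-33 clones and at 2.25 in the control. It rose by 4.62 in ΔNLS clones (adjusted p = 0.00267) and by 3.56 in IL-33 clones (adjusted p = 0.0157), with every clone above background and the control below it. ZNF738 rose in ΔNLS clones by 2.55 (adjusted p = 0.0124). Of 5 other genes between the members, OR7E24 and OR7D2 rose and LINC00663 and ACTR2P2 fell in ΔNLS clones, all below background in every array.

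Farther away, 15 of 32 other ZNF genes of the short arm rose in ΔNLS clones, with a median difference of 0.46, and 4 rose in IL-33 clones (median 0.28). Of 162 ZNF genes on chromosome 19 beyond the last member, 40 rose and 16 fell in ΔNLS clones (median 0.14), and 12 rose and 2 fell in IL-33 clones (median 0.12). Of 256 ZNF genes on other chromosomes, 35 rose and 50 fell in ΔNLS clones (median -0.11), which is 13.7% and 19.5% beside 14.8% and 23.5% of all genes, and 16 rose and 7 fell in IL-33 clones (median 0.11). Genes of chromosome 19 that are not ZNF genes had medians of 0.04 in ΔNLS clones and 0.08 in IL-33 clones (n = 1057), beside 2.09 and 0.97 in the 19p13.11 to 19p12 cluster. These are medians of raw differences. In that cluster only 1 of 27 genes was above background in the control, and 7, 10 and 9 in IL-33 clones 3, 5 and 9. Its medians thus rest largely on signals below background and give no measured rise of the whole cluster. The number of copies of the clusters in each clone was not measured.

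**Figure D4:**
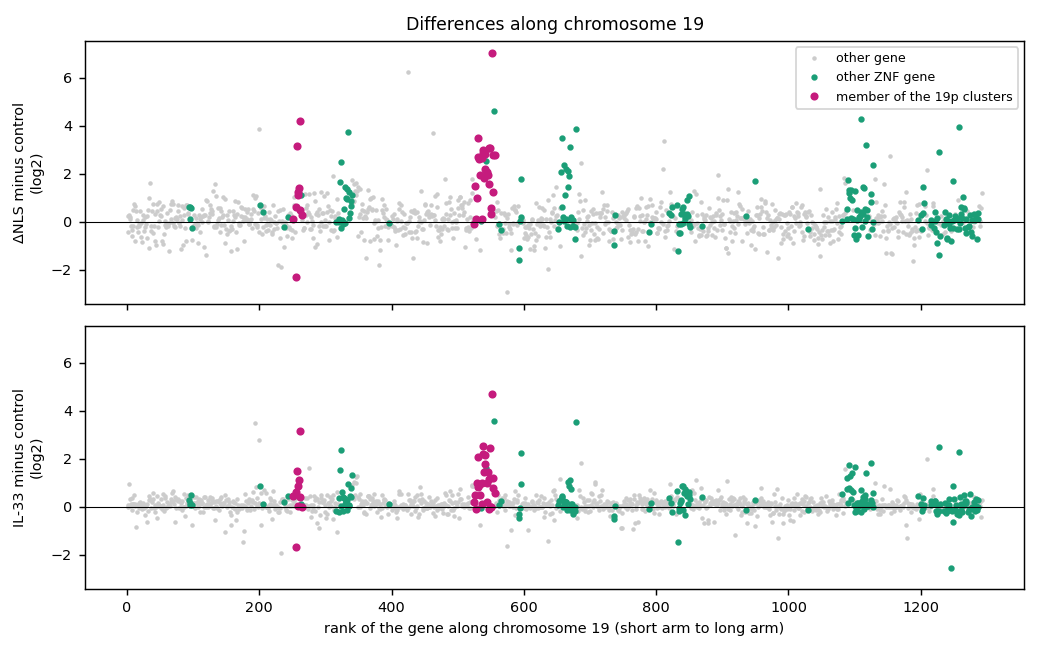
Difference in signal from the control (log2, y axis) for ΔNLS clones (upper panel) and IL-33 clones (lower panel) of all genes of chromosome 19 on the array, by their rank along it. The 37 genes (magenta) form 2 columns that lie mostly above 0, other ZNF genes (green) are mixed, and the remaining genes (grey) scatter about 0.

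Finally, the machinery through which KRAB proteins act, and the heterochromatin factors around it, were examined as a list of 35 genes, 34 of them above background in some array. In ΔNLS clones 3 rose and 10 fell (8.57% and 28.6%, beside 14.8% and 23.5% of all genes), and in IL-33 clones 2 rose and 1 fell (5.71% and 2.86%, beside 3.65% and 4.00% of all genes). TRIM28, the co-repressor itself, was at 9.28 and 9.33 in ΔNLS clones, at 9.44, 9.54 and 9.55 in IL-33 clones and at 9.49 in the control, and SETDB1 was between 6.21 and 6.64 in all arrays. Neither passed in any comparison, with differences from the control of -0.19 and 0.35 in ΔNLS clones and 0.02 and 0.13 in IL-33 clones. CBX5, which encodes the heterochromatin protein HP1 alpha, was at 8.30 and 8.24 in ΔNLS clones, at 8.84, 8.50 and 8.31 in IL-33 clones and at 10.13 in the control. It fell by 1.85 in ΔNLS clones (adjusted p = 0.00361) and fell by 1.58 in IL-33 clones (adjusted p = 0.0177), with no overlap between clones and control.

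The other members of the list with the smallest p passed in ΔNLS clones but not in IL-33 clones, apart from EHMT2. CHD4, the ATPase of the NuRD complex, was at 7.58 and 7.75 in ΔNLS clones, at 9.18, 9.07 and 8.94 in IL-33 clones and at 9.07 in the control, and fell by 1.40 in ΔNLS clones (adjusted p = 0.00283). SETDB2, on a probe set that ends in _x_at, fell there by 0.47. It was below background in both ΔNLS clones, so only a bound of -0.39 holds. MORC3, CBX3 (HP1 gamma) and SMARCAD1 also fell in ΔNLS clones, by 0.90, 0.77 and 1.01, while EHMT1, a histone H3 lysine methyltransferase, rose by 0.96 (limma adjusted p = 0.0044). EHMT2, its partner, passed only between IL-33 and ΔNLS clones, where IL-33 clones were higher by 0.85 (adjusted p = 0.00268). Whether these levels bear on the zinc finger genes was not tested.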

How the data were processed

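RNA of stable U87 clones was hybridised to Affymetrix PrimeView arrays by the authors, 1 array per clone. The deposited values are normalized log2 signals for 49395 probe sets, made with Partek 6.0 according to the submitters' processing notes; the normalization and background methods are not given in the sources used here. Arrays carry no read depth, and their small number limits the precision. Probe sets were named from the platform annotation (44994 with 1 symbol, 1832 with several, 2569 with none), updated through RefSeq gene identifiers. Only probe sets with 1 symbol were used, and each gene was read from its brightest one by average signal across arrays.

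The genes, the lists and the tests were chosen with earlier results of these data known. All 18132 genes were fitted with limma 3.58.1 in R 4.3.3 (3 group means, moderated two-sided test with an intensity trend of the spread, 3 residual and 2.81 prior degrees of freedom), and p-values were adjusted by Benjamini-Hochberg over all genes, with a threshold of 0.05. The script was tested on simulated data. Where 1 side was below background, folds are bounds: the mean of the brighter group over the mean of the dimmer one with each value raised to at least 4.8. Alternatives were the arrays entering the fit, each clone left out, the spread estimate, the choice of probe sets, the treatment of values below background, quantile normalization, and the threshold of the methods (FDR 0.01 and 2-fold). Values by array are given for genes that passed in any comparison and were above 4.8 in some array, and for ZNF101; others are counts and ranges. Motifs were searched on both strands of the RefSeq promoters (GRCh38.p14).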

Additional observations from a re-analysis of the deposited data

Results flagged for a closer look

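IL-33 and ΔNLS clones differed from each other (limma, adjusted p under 0.05, which is also the test of whether their differences from the shared control differ) in 15 of the genes above background in some array. This filter was passed by 23 of the 37 genes, 7 of them only through ΔNLS clones, so nothing is read from that count; over all genes it left 12502, of which 2418 were lower and 3557 higher in IL-33 clones. Of the genes measured on both sides, IL-33 clones were lower in ZNF91 by a difference of -2.34, ZNF266 by -1.70, ZNF626 by -1.65, ZNF93 by -1.46, ZNF562 by -1.05 and ZNF121 by -0.32 (log2, IL-33 minus ΔNLS). ZNF431 was lower by -1.03, with IL-33 clone 3 below background. ZNF90 (-1.74), ZNF208 (-1.94), ZNF254 (-2.22), ZNF429 (-1.79), ZNF486 (-1.45), ZNF681 (-1.57) and ZNF682 (-1.87) were below background in every IL-33 clone, so these values have no order and only bounds of -0.26 (ZNF90) to -0.78 (ZNF681) hold. ZNF317 was higher by 0.31. The array medians differ between these constructs (5.61 to 5.62 in IL-33 clones and 5.43 in ΔNLS clones), and construct and array set cannot be told apart.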

How the results depend on the processing

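In ΔNLS clones against the control, 29 of the 37 genes were called (28 higher, 1 lower), and leaving out 1 clone at a time gave 10 to 30. The count was 10 with values under background set to it and 17 at the threshold of the methods. The 7 other settings gave 21 to 31, where the counts of 21 came from settings that could test only 28 or 23 genes. ZNF91, ZNF562, ZNF121, ZNF266 and ZNF626 passed under each of the 14 alternatives, and ZNF254 and ZNF430 under each of the 13 that could test them. In the setting without _x_at or _s_at probe sets, ZNF91 and ZNF562 were read from probe sets below background in every array. No fold holds for them there, and cross-matching was not tested. ZNF561 reversed, to -0.0072, with the mean of all its probe sets. In IL-33 clones 9 genes were called, and leaving out 1 clone gave 0 to 17. With 1 ΔNLS clone left out, or with only the arrays compared, none of the 37 genes passed, and neither did any other gene on the array. The median difference of the 37 genes was 0.87 in each of these settings, as in the main fit. The calls in IL-33 clones numbered 5 of 28 genes tested without _x_at or _s_at probe sets and 2 with values under background set to it. They numbered 1, ZNF562, at the threshold of the methods. Between IL-33 and ΔNLS clones 20 genes were called (1 higher and 19 lower); leaving out 1 clone gave 4 to 24, setting values under background to it 8, and the threshold of the methods 11. Over all genes quantile normalization gave 3781 higher and 4014 lower in that comparison in place of 5697 and 2924. Fewer arrays leave fewer degrees of freedom; the cause of the other changes was not tested. No paired analysis was possible, because a clone number shared by IL-33 and ΔNLS clones is not a pairing and the control has none.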
